A study of Mus musculus with 9 samples.

Results

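Levels of 10 marker genes of mesothelium and simple epithelium were followed across mouse embryonic fibroblasts (MEFs) of 3 genotypes. The genes are Upk1b, Upk3b, Gpm6a, Msln, Wt1, Krt8, Krt18, Krt19, Pkhd1l1 and Lrrn4. The set was chosen by the log2 levels of the double mutant and wild-type arrays, around the high level of the uroplakin genes in the double mutant, each gene has a single probe set that carries its symbol, and they are 10 of 19938 genes measured. For that reason differences that involve the double mutant arrays are given for the 10 genes as a description, with no test.

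The wild-type cells (WT), the cells labelled ERO1alpha and beta double mutant (DM) and the cells labelled PRDX4 KO, ERO1alpha and beta double mutant (TM) were each measured on 3 Affymetrix Gene ST arrays. ERO1 and PRDX4 are oxidases of the endoplasmic reticulum that drive disulfide bond formation, and the study asked how cells and mice fare without them. The labels give a C57B/L6 background and MEFs transformed with T antigen for all 9 arrays. The methods describe primary MEFs for some figures and MEFs immortalized with T antigen for others. Which of them were hybridised is not settled by the methods. By the methods on MEF isolation every genotype was Ero1β m/m, the control was Ero1α m/+ with Prdx4 intact (+/+), the double mutant Ero1α m/m with Prdx4 +/+, and the triple mutant Ero1α m/m with Prdx4 m/y. The control there thus carries the Ero1β mutation, while the labels call the first group wild type. The Ero1 alleles are gene traps and the Prdx4 allele is a null on the X chromosome. Neither source says how many embryos or lines stand behind a genotype or that its 3 arrays came from separate cultures. The spread behind every p-value is thus that between arrays of a genotype, pooled over the 9 arrays in a shared model, and may be technical.

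Ero1a was low in both mutants, at a log2 level of 9.46 ± 0.052 in DM and 9.06 ± 0.076 in TM against 11.86 ± 0.020 in WT (mean ± SD, n = 3 arrays, as for all levels), and Prdx4 was low in TM alone, at 6.30 ± 0.41 against 10.56 ± 0.11 in WT. The arrays of DM also stood apart in Xist, whose RNA coats and silences an X chromosome in female cells, and which lay at 12.56 ± 0.068 in DM and at 5.70 ± 0.053 and 5.72 ± 0.099 in WT and TM. The methods write Prdx4 +/+ for the control, the form the paper's genotype table uses for females, yet Xist was low in WT. The reason was not tested. Genotype, the sex of the cells and the culture cannot be told apart for any result that sets DM against the others. Levels are deposited RMA values on the log2 scale, a difference of 1 is a doubling, and the median probe set of an array lay at 7.62 to 7.72. No detection call comes with these values, so whether a gene below that median was expressed at all is not known.

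The mesothelium is the sheet of flat cells that lines the body cavities and covers the heart, lung and gut. It arises from mesoderm, like the fibroblasts of connective tissue, yet it carries keratins and apical surface proteins as an epithelium does. Mesothelial cells can lose these traits and become fibroblast-like, and in the embryo the layer gives rise to part of the fibroblasts of the organs it covers. Mouse mesothelium is known for uroplakin 3B, mesothelin, WT1 and the keratins of simple epithelia. In bulk RNA such as this, fewer cells of a type and less RNA per cell cannot be told apart.

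Of the 10 genes, 7 were over 1.5-fold higher in DM than in WT and 1 was lower by that margin, where 5.28% of all genes were over that fold higher and 5.67% lower. The arrays of DM and WT did not overlap in 7 genes that were higher in DM and 2 that were lower, where 22.5% and 23.9% of all genes lay so. The median log2 difference of the 10 genes was 4.09, against 0.02 over all genes. None of these 7 genes passed 1.5-fold in TM against WT. The 10 genes fell into 3 patterns, high in DM alone (Upk1b, Upk3b, Gpm6a, Wt1, Lrrn4, Pkhd1l1 and Krt18), overlapping in all genotypes (Krt8), and stepping down from WT to DM to TM (Msln and Krt19).

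**Figure D1:**
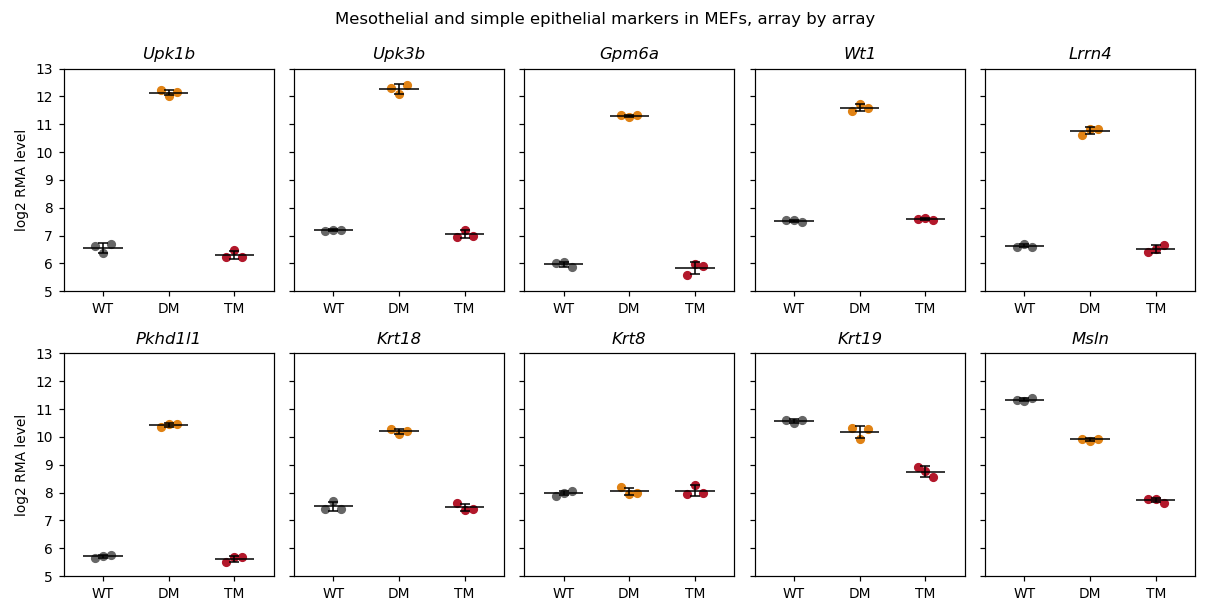
Log2 RMA level of each of the 10 genes in WT (grey), DM (orange) and TM (red) MEFs. Each point is an array, each horizontal mark the mean of 3 arrays, with the SD as its bar. Upk1b lies between 12.03 and 12.22 in DM and between 6.22 and 6.69 in all other arrays, while Msln steps down from WT to TM.

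The uroplakins are membrane proteins best known from the plaques that stiffen the apical surface of bladder urothelium. Upk1b, which encodes a tetraspanin that escorts its partner uroplakin to the surface, had log2 levels of 6.64, 6.36 and 6.69 in WT, 12.22, 12.03 and 12.15 in DM, and 6.23, 6.48 and 6.22 in TM. The 3 DM arrays lay far above all others, and WT and TM overlapped. The DM mean was 5.57 above that of WT on the log2 scale (SE 0.098), or 47.5-fold, and ranked 5 among the differences of all genes. Upk3b, which encodes a single-pass uroplakin found in mesothelium, had levels of 7.16, 7.21 and 7.21 in WT, 12.29, 12.07 and 12.42 in DM, and 6.96, 7.21 and 6.99 in TM. It too was high in each DM array, by 5.07 over WT (SE 0.091, 33.6-fold), and its WT and TM arrays overlapped.

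Gpm6a, Lrrn4 and Pkhd1l1 encode surface proteins of other families. Gpm6a, a proteolipid family gene best known from neurons, had levels of 6.01, 6.05 and 5.88 in WT, 11.32, 11.24 and 11.32 in DM, and 5.58, 5.99 and 5.89 in TM. Its DM mean was 5.32 above WT (SE 0.093, 39.9-fold). Lrrn4, which encodes a leucine-rich repeat membrane protein, had levels of 6.60, 6.70 and 6.61 in WT, 10.62, 10.83 and 10.83 in DM, and 6.40, 6.50 and 6.67 in TM. It stood 4.12 above WT in DM (SE 0.082, 17.4-fold). Pkhd1l1, which encodes a very large membrane protein related to fibrocystin, had levels of 5.65, 5.71 and 5.77 in WT, 10.36, 10.45 and 10.48 in DM, and 5.49, 5.68 and 5.67 in TM. It stood 4.72 above WT in DM (SE 0.068, 26.3-fold). For each of these genes the WT and TM arrays overlapped and no DM array came near them.

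Wt1 encodes a zinc finger transcription factor of the mesothelium, the kidney and the gonad. Its levels were 7.55, 7.56 and 7.50 in WT, 11.46, 11.72 and 11.59 in DM, and 7.61, 7.65 and 7.57 in TM. The DM mean was 4.05 above WT (SE 0.068, 16.6-fold). The TM arrays all lay above the WT arrays, but by as little as 0.004 between the nearest, and the difference of 0.07 (SE 0.068) did not pass (adjusted p = 0.521 from limma).

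The 3 keratin genes had 3 patterns. Krt8 and Krt18 encode the type II and type I partners of the filament pair of simple epithelia, and Krt19 encodes a further type I keratin. Krt18 had levels of 7.41, 7.69 and 7.43 in WT, 10.30, 10.11 and 10.20 in DM, and 7.61, 7.38 and 7.41 in TM. It was high in DM alone, by 2.69 over WT (SE 0.090, 6.47-fold). Krt8, its partner, had levels of 7.89, 8.004 and 8.05 in WT, 8.19, 7.96 and 7.99 in DM, and 7.94, 8.29 and 7.97 in TM. The Krt8 arrays of all 3 genotypes overlapped, and its DM mean differed from WT by 0.06 (SE 0.095). Krt19 had levels of 10.61, 10.48 and 10.60 in WT, 10.31, 9.92 and 10.28 in DM, and 8.93, 8.78 and 8.57 in TM. Its levels were ordered WT, DM, TM with no overlap, though the nearest WT and DM arrays were 0.18 apart.

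Msln encodes mesothelin, a lipid-anchored surface protein named for its presence on mesothelial cells. It was the only one of the 10 genes over 1.5-fold lower than WT in DM. Its levels were 11.33, 11.30 and 11.40 in WT, 9.94, 9.86 and 9.94 in DM, and 7.78, 7.78 and 7.64 in TM. The genotypes did not overlap, with DM 1.43 below WT (SE 0.061) and TM 3.61 below WT (SE 0.061), a 12.2-fold lower level in TM. Mesothelin mRNA was thus highest in WT, in arrays where uroplakin and Wt1 probe sets lay below the array median.

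TM against WT was not the comparison behind the choice of the genes, and it was tested for Wt1, Krt8, Krt18, Krt19, Pkhd1l1 and Lrrn4. The WT arrays took part in that choice, so these tests are not independent of it. Values of Upk1b, Upk3b, Gpm6a and Msln in this comparison were known when the genes were chosen, and they are given without a test. Of the 6 tested genes, 1 was called, Krt19, which was lower, where 9.15% of all genes were called in this comparison, 5.59% as higher and 3.56% as lower. A call needed an adjusted p under 0.05 over all genes and more than 1.5-fold. Krt19 fell by 1.81 on the log2 scale in TM (SE 0.11, adjusted p = 5.27e-08 from limma), lower in 3 of 3 arrays. Krt18 differed by -0.04 (SE 0.090, adjusted p = 0.804), Krt8 by 0.08 (SE 0.095, adjusted p = 0.592), Pkhd1l1 by -0.10 (SE 0.068, adjusted p = 0.335) and Lrrn4 by -0.11 (SE 0.082, adjusted p = 0.365). Over the 10 genes, the TM and WT arrays did not overlap in 1 that was higher (Wt1) and 2 that were lower (Msln and Krt19), where 18.3% and 25.1% of all genes lay so. The untested differences were -0.25 for Upk1b (SE 0.098), -0.14 for Upk3b (SE 0.091) and -0.15 for Gpm6a (SE 0.093).

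Set directly against DM, 9 of the 10 genes were over 1.5-fold lower in TM and none was higher, where 3.61% of all genes were over that fold lower and 4.68% higher. The arrays did not overlap in the same 9 genes, as in 21.6% of all genes that were lower. The differences were -5.82 for Upk1b, -5.47 for Gpm6a and -5.21 for Upk3b, which ranked 2, 3 and 4 among the largest falls of all genes. Pkhd1l1 followed at -4.82, Lrrn4 at -4.24, Wt1 at -3.98, Krt18 at -2.73, Msln at -2.18 and Krt19 at -1.41, and Krt8 differed by 0.02. This comparison and that of DM with WT share the DM arrays, so a like size of the differences in both is not independent.

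The sequence before the start of a gene was read for 5 of the 10 genes that the RefSeq promoter table of GRCm38.p6 holds (Gpm6a, Krt8, Krt18, Lrrn4 and Upk3b). Those of Upk3b, Lrrn4 and Gpm6a are shown because these genes were high in DM alone, and those of Krt18 and Krt8 because these neighbouring partner genes differed in pattern. Each run is the 250 bases before the start, 5′ to 3′ on the strand of the gene. Capitals mark matches on either strand to TATAAA (the core promoter box), GATAAG (bound by GATA factors), GGAATG (bound by TEAD factors), TGANTCA (bound by AP-1), GCGTGGGNG (bound by WT1 and EGR factors) or AGGTCA (a nuclear receptor half-site), none of which overlapped another in these windows.
Upk3b, chr5:136038246-136038495, plus strand: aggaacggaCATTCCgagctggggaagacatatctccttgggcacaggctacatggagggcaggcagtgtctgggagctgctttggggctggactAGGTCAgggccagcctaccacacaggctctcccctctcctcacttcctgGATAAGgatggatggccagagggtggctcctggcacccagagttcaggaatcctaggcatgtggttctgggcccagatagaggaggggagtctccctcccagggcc
Lrrn4, chr2:132880863-132881112, minus strand: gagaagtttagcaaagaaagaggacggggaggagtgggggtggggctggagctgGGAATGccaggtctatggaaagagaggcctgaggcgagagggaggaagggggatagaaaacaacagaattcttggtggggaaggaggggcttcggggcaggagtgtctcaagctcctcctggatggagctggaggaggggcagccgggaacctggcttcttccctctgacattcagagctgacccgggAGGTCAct
Gpm6a, chr8:54779184-54779433, plus strand: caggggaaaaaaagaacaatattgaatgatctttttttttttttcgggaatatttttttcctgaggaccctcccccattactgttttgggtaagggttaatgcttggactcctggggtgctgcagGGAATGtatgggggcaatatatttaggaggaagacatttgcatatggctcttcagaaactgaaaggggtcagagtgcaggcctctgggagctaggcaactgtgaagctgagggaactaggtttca
Krt18, chr15:102027966-102028215, plus strand: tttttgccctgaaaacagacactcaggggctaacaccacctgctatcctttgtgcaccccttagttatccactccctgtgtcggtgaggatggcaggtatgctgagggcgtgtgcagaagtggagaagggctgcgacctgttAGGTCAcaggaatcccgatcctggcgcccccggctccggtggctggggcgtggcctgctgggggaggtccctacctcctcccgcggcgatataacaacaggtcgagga
Krt8, chr15:102004343-102004592, minus strand: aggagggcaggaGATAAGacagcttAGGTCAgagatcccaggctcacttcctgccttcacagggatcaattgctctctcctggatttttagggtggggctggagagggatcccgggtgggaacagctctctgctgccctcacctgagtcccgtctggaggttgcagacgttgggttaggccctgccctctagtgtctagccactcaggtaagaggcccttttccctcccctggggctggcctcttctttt

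GGAATG or its complement stood in the windows of Upk3b, Lrrn4 and this start of Gpm6a, and in 12.6% of all 32851 windows of the same length. It was in neither keratin window, nor in the window of a second listed start of Gpm6a. GATAAG stood in the windows of Upk3b and Krt8 and in 6.55% of all windows. AGGTCA stood in those of Upk3b, Lrrn4, Krt18 and Krt8 and in 14.0% of all windows. TGANTCA and GCGTGGGNG, at 6.75% and 1.65% of all windows, were in none of the 5 shown, and TATAAA, at 12.4%, was in none of them either. These matches describe letters in a window and do not show binding.

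The nearest measured gene on each side of each member was read to see how far along the chromosome a difference reached. These neighbours were chosen after the members' values were seen. The 10 genes have 18 such neighbours that are not members, of which 2 were called higher and 0 lower in DM against WT by limma, where 10.9% of all genes were called. B4galt4, a galactosyltransferase gene next to Upk1b, rose by 1.61 (adjusted p = 1.25e-08 from limma), while Tex55 on the other side differed by -0.02. Wt1os, which is transcribed from the opposite strand beside Wt1, rose by 0.61 (adjusted p = 9.07e-05 from limma), against 4.05 for Wt1 itself. Upk3bl, a uroplakin-like gene next to Upk3b, differed by 0.03 (adjusted p = 0.817 from limma), and Mslnl next to Msln by 0.12 (adjusted p = 0.103 from limma). Krt8 and Krt18 are each other's nearest measured neighbour, as are no other members.

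**Figure D2:**
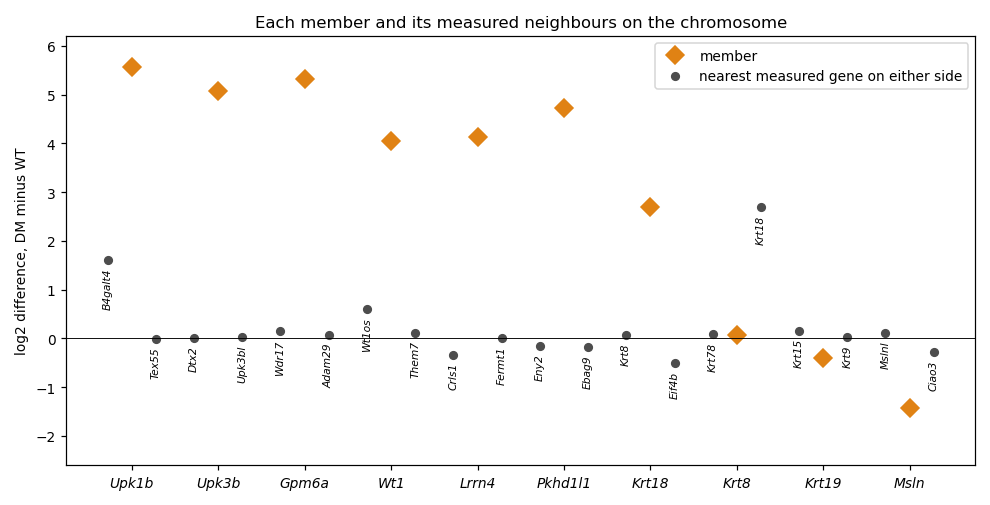
Log2 difference, DM minus WT, of each of the 10 genes (orange diamonds) and of the nearest measured gene before and after it on the chromosome (grey points, with names). The points of Krt18 and Krt8 appear again as neighbours of each other, and B4galt4 at 1.61 is the highest neighbour that is not a member.

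Of 22 further mesothelial markers, none of them a member, 9 rose and 0 fell in DM against WT, or 40.9% called against 10.9% of all genes. This list and those below were drawn up with earlier results of these data known. Their shares and p-values are thus not independent of those results. Their median log2 difference was 0.43, against 0.02 over all genes. The count of 0 was also 0 at an unadjusted p under 0.05 and by the methods' t-test, but 1 gene fell with each array centred on its median. Podxl, the podocalyxin gene of podocytes and mesothelium, was counted with the podocyte markers and is not among the 22. It was called lower in DM against WT, with a difference of -1.81. Gata6 and Gata4, transcription factor genes of the heart and of mesothelium, rose by 3.92 and 3.26, and Ildr2 and the semaphorin gene Sema3d by 3.76 and 3.68 (adjusted p = 7.68e-14, 1.23e-12, 2.7e-13 and 1.62e-12 from limma).

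Gata4 had levels of 7.60, 7.62 and 7.65 in WT, 10.79, 10.98 and 10.89 in DM, and 7.85, 8.01 and 7.91 in TM, and Sema3d had 6.95, 7.03 and 7.09, then 10.66, 10.67 and 10.78, then 7.24, 6.98 and 7.19. In both the DM arrays lay far above all others, though Gata4 was also 0.29 higher in TM than in WT, under the 1.5-fold limit (adjusted p = 0.00349 from limma). Efemp1, which encodes a matrix fibulin, rose by 2.13, and Muc16, which encodes the mucin known as CA125, rose by 1.57 from a mean of 4.93 in WT to 6.50 in DM. Rspo1, Crb2 and Bnc1 rose by 1.46, 1.40 and 0.81. Calretinin, another stock marker of mesothelium, is encoded by Calb2, which differed by 0.06 in DM and -0.14 in TM. Calb2 held the same value of 5.95 in each WT array, with means of 6.01 in DM and 5.81 in TM. All lay below the array median, so whether it was expressed is not known. Tcf21, Tbx18, Upk3bl, Dmkn, Nkain4 and Pdpn were not called in any comparison, with Pdpn, the podoplanin gene, at -0.52 in DM. Of these, Tcf21, Upk3bl, Dmkn and Nkain4 had means below the array median in every genotype.

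In TM against WT, 5 of the 22 markers rose and 1 fell, or 27.3% called against 9.15% of all genes. Gata6 rose by 3.14, Ildr2 by 1.85, Aldh1a2, a retinoic acid synthesis gene, by 1.43, Efemp1 by 1.23 and Rarres2 by 0.73, and the gene that fell was Bnc1, which encodes the zinc finger protein basonuclin, with a difference of -1.89. The number that fell was 2 with median centring, with quantile normalization or without TM replicate 2. Compared directly, 10 of the 22 were lower and 1 higher in TM than in DM, where 8.29% of all genes were called. Without TM replicate 3 the number higher was 2. Sema3d, Gata4, Bnc1 and Ildr2 had the largest of these falls, at -3.56, -2.96, -2.70 and -1.91, and the gene that was higher was Aldh1a2, at 0.86. Gata6 was 0.79 lower in TM than in DM on the log2 scale, so that unlike Gata4 it was high in both mutants.

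Of 39 listed simple epithelial markers 38 were measured, and 7 rose and 0 fell in DM against WT, or 18.4% called against 10.9% of all genes. Their median log2 difference was 0.11. The desmosome gene Dsp rose by 2.75, from levels of 7.89, 7.89 and 7.86 in WT to 10.57, 10.62 and 10.69 in DM. Cdh3, which encodes P-cadherin, rose by 2.33, from 9.97, 9.98 and 9.91 to 12.24, 12.32 and 12.29. Lsr, a gene of tricellular junctions, rose by 1.23, Cdh1, which encodes E-cadherin, by 1.14 from 6.90 ± 0.065 to 8.04 ± 0.036, and Krt7, another keratin of simple epithelia, by 1.01 (adjusted p = 8.71e-08, 3.06e-08 and 3.34e-08 from limma).

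Many defining genes of epithelia were not called in any comparison. Epcam differed by -0.34 in DM, and the claudin genes Cldn3, Cldn4, Cldn6 and Cldn7 by 0.16, 0.11, 0.05 and 0.14. Grhl2, Ovol1, Ovol2, Elf3 and Ehf, transcription factor genes of epithelia, differed by -0.05, 0.05, -0.02, 0.15 and 0.09. Esrp1, an epithelial splicing factor gene, differed by 0.10, while its relative Esrp2 rose by 0.77. Epcam, Cldn6, Cldn7, Grhl2, Ovol1, Ovol2, Elf3, Ehf and Esrp1 had means below the array median in every genotype. Whether they were expressed is not known, so differences near 0 there do not show steady expression.

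In TM against WT, 1 of the 38 rose and 4 fell, or 13.2% called against 9.15% of all genes. The falls were -1.20 for Cgn, the tight junction gene for cingulin, -1.02 for the protease inhibitor gene Spint1, -1.004 for the plakophilin gene Pkp2 and -0.98 for Dsp. St14, a membrane protease gene, rose by 0.68. The number that rose was 2 without TM replicate 3. Compared directly, 11 of the 38 were lower in TM than in DM and 0 were higher, or 28.9% called against 8.29% of all genes. The count of 0 held at an unadjusted p under 0.05 and by the methods' t-test. Dsp differed by -3.73 and Cdh3 by -2.77.

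**Figure D3:**
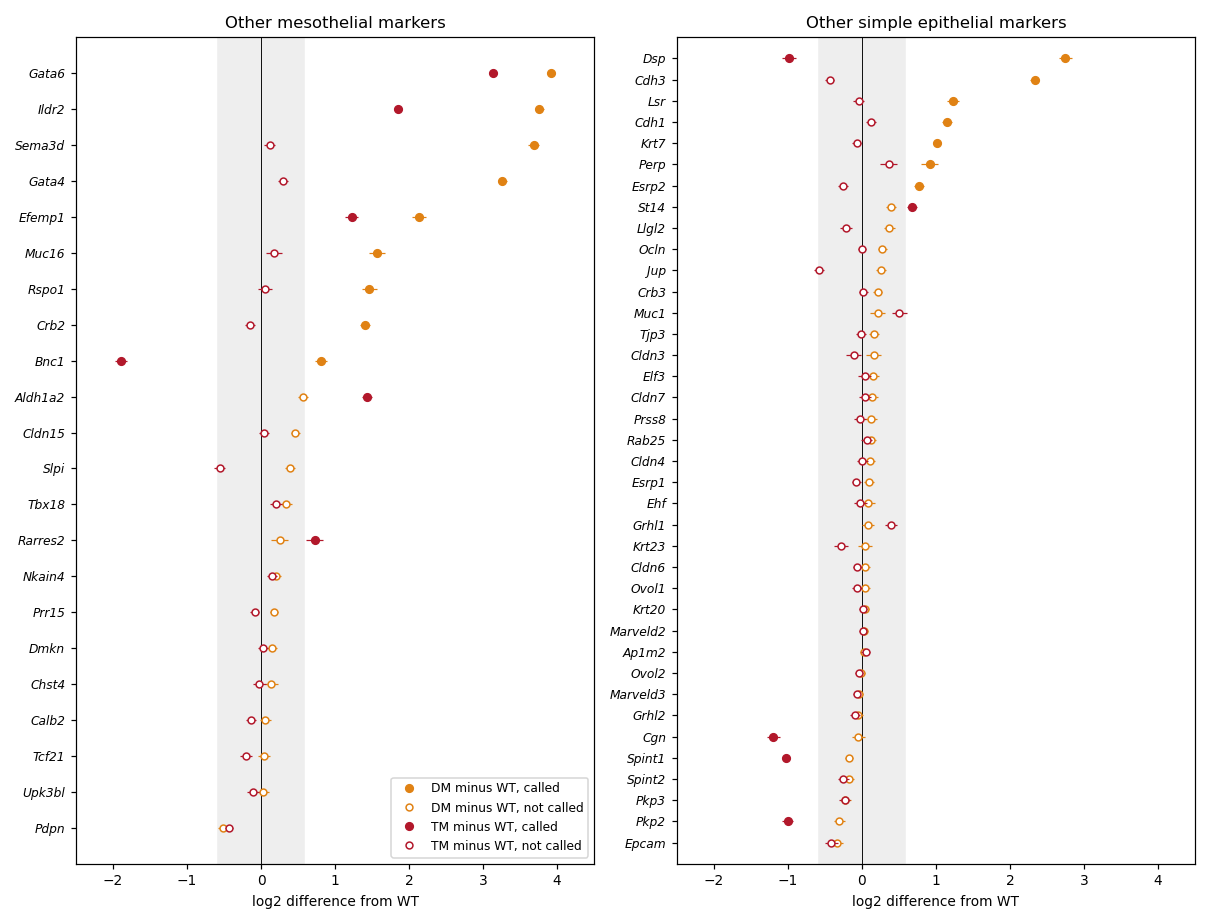
Log2 difference from WT of 22 further mesothelial markers (left) and 38 further simple epithelial markers (right) in DM (orange) and TM (red). Filled points were called, open points were not, bars are standard errors and the grey band spans 1.5-fold either way. In DM 9 and 7 genes lie to the right of the band as calls, while most genes of both panels, 13 and 31, were not called and stay inside it.

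The other uroplakin genes of bladder urothelium that were listed, Upk1a, Upk2 and Upk3a, were not called in any comparison. Of 9 further uroplakin and urothelial genes 1 rose in DM and 1 in TM against WT, in each case Psca, which encodes a surface antigen of bladder and prostate, by 0.61 and 0.76. That is 11.1% of the list, where 10.9% and 9.15% of all genes were called. Upk1a, Upk2 and Upk3a differed from WT in DM by 0.06, 0.15 and 0.04, and in TM by -0.02, -0.04 and -0.04. The means of Upk3a lay below the array median in every genotype. Of 10 keratins of stratified epithelia, 1 rose in DM, Krt14, by 0.84 to a mean of 8.24, and 0 in TM against WT, where 10.9% and 9.15% of all genes were called. The counts of 0 in these lists were also 0 at an unadjusted p under 0.05 and by the methods' t-test.

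RNAs of fibroblasts and mesenchyme were read in the same arrays, as a description that cannot tell fibroblasts from other mesenchymal cells. Vim, which encodes vimentin, lay at 14.18 in WT, 14.16 in DM and 14.15 in TM, and Fn1, which encodes fibronectin, at 13.69, 13.99 and 13.89, all far above the array median. Not every gene of the list lay there, since Lum, a matrix proteoglycan gene, was at 4.80, 4.91 and 6.86, Fap, a surface protease gene, at 5.88, 6.02 and 6.92, and Thy1, a surface glycoprotein gene, at 7.67, 7.42 and 10.61. Of 20 fibroblast and mesenchymal genes, 1 rose and 5 fell in DM against WT, or 30.0% called against 10.9% of all genes. The genes that fell were S100a4 (-2.28), the PDGF receptor gene Pdgfra (-1.91), the collagen gene Col1a2 (-1.71), Twist2 (-0.78) and Zeb1 (-0.67), and Pdgfrb rose by 1.18. In TM against WT 7 rose and 1 fell, or 40.0% called against 9.15% of all genes, with Thy1 higher by 2.93, Lum by 2.06 and Pdgfrb by 1.23. Compared directly, 10 were higher and 1 lower in TM than in DM, or 55.0% called against 8.29% of all genes. The summed linear level of the 20 genes ran from 63798 to 66079 in WT, 64105 to 65131 in DM and 72507 to 73372 in TM arrays. Col1a1 differed by 0.53 in DM and 0.03 in TM, and Cdh2, which encodes N-cadherin, by 0.14 and -0.55, with no call against WT.

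**Figure D4:**
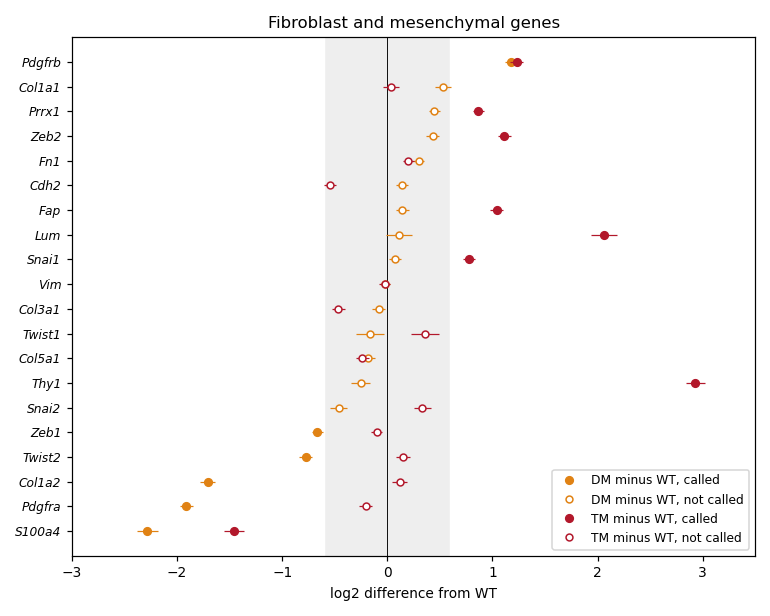
Log2 difference from WT of 20 fibroblast and mesenchymal genes in DM (orange) and TM (red). Filled points were called, open points were not, bars are standard errors and the grey band spans 1.5-fold either way. Pdgfra and Col1a2 were called in DM only, at -1.91 and -1.71, and Thy1 in TM only, at 2.93.

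Markers of other cells that a MEF culture could hold were read as well. Of 10 leukocyte and macrophage markers 0 were called in any comparison, and their summed linear level ran from 1478 to 1509 in WT, 1324 to 1447 in DM and 1447 to 1538 in TM arrays. Of 8 endothelial markers 0 were called, and their sum ran from 894 to 913 in WT, 910 to 1004 in DM and 894 to 1007 in TM arrays. These counts were also 0 at an unadjusted p under 0.05 and by the methods' t-test. Of all genes, 10.9% were called in DM against WT, 9.15% in TM against WT and 8.29% in TM against DM. The summed level of the 22 further mesothelial markers ran from 6321 to 6558 in WT, 17090 to 17914 in DM and 8578 to 8595 in TM, and that of the 38 further simple epithelial markers from 13075 to 13280, 19923 to 20193 and 9557 to 10033. The part of any minor cell type in these levels was not tested. No array value is at 0, since RMA leaves none, so each sum also counts genes below the array median, and the brightest genes weigh most. Among the leukocyte and macrophage markers only Cd68 and Cd14 had means above that median, at 9.22 and 8.02 in WT.

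Genes with a profile like that of the uroplakins were sought over the 9 arrays. Among 397 genes that are no members and whose genotype means spanned at least 2 on the log2 scale, the 10 with the highest Pearson r to the mean profile of Upk1b and Upk3b were Sema3c, Xist, Oas2, Ptprb, Frmd4b, Col4a6, Myrf, Aldh1a1, Trf and Stk26, with r of 0.996 to 0.999. The arrays lie in 3 clusters by genotype, so r mostly compares genotype means and any gene high in DM alone scores well, as Xist shows. Frmd4b went from 6.61 in WT to 11.65 in DM and 6.76 in TM, Aldh1a1, a retinaldehyde dehydrogenase gene, from 6.16 to 10.78 and 6.32, and Myrf, a membrane-bound transcription factor gene, from 7.59 to 11.12 and 7.51. The semaphorin gene Sema3c, a relative of Sema3d, went from 10.41 to 13.02 and 10.25. Among the other members r was 0.995 to 0.999 for Gpm6a, Pkhd1l1, Lrrn4, Wt1 and Krt18 and at most 0.335 for Krt19, Msln and Krt8.

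The profile of Msln was followed most closely by Vav3, Vat1l, Podxl, Adcy7 and Htra1, at r of 0.959 to 0.982, and by the member Krt19 at 0.970. Podxl, which encodes podocalyxin, a sialomucin of podocytes and mesothelium, went from 10.74 in WT to 8.93 in DM and 7.87 in TM. Htra1, a secreted serine protease gene, went from 12.29 to 10.45 and 9.39, and Vav3, a guanine exchange factor gene, from 9.23 to 8.16 and 7.19. These genes share with Msln the descent over the 3 genotypes, with the same 9 arrays behind each value.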

How the data were processed

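RNA of WT, DM and TM MEFs was hybridised to 3 arrays of each genotype. Per the methods, GCOS turned the raw images into CEL files and GeneSpring GX applied RMA and PLIER. The processing notes name RMA, with no version. The values deposited by the authors are log2 RMA values, corrected for background, normalized between arrays and summarised over the probes of a set, so a shift of total signal between genotypes would have been removed. PLIER values and probe data were not used here, and no source used here gives a genome build.

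The platform annotation gives 1 symbol to 21789 of 35556 probe sets, several to 1621 and none to 12146, and only the first were named. Identifiers of 21698 matched RefSeq genes of GRCm38.p6, and 0 symbols changed. For genes with several probe sets the brightest stood for the gene (19938 genes). Arrays correlated at 0.994 to 0.997 within a genotype and 0.976 to 0.984 between genotypes. The number of arrays limits the precision.

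One limma model (version 3.58.1, R 4.3.3, lmFit and eBayes, 6 residual degrees of freedom) held all 9 arrays, and was tested on simulated data. Calls needed a Benjamini-Hochberg adjusted p below 0.05 and more than 1.5-fold. The members and all lists were chosen with earlier results of these data known. Named genes are the members, up to 4 called genes of each list and comparison with the largest differences, the 10 genes most like Upk1b and Upk3b and the 5 most like Msln by Pearson r, and Ero1a, Prdx4 and Xist. All other list genes and the neighbours were named after their values were seen. Alternatives were cyclic loess or quantile normalization, median centring, a filter on dim genes, other variance models, array weights, fits of 6 arrays, the replicate number as a block, leaving out each array, the mean of a gene's probe sets, the methods' t-test and other thresholds.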

Additional observations from a re-analysis of the deposited data

Results flagged for a closer look

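Among the genes of the other lists, 2 were called higher than WT in DM and lower than WT in TM. They were picked by these calls, so a lower level in TM than in DM follows from the choice and is only described. Bnc1 differed between TM and DM by -2.70 on the log2 scale, with 9.17, 9.15 and 9.17 in WT, 9.97, 10.06 and 9.90 in DM and 7.12, 7.48 and 7.22 in TM arrays. Dsp differed between TM and DM by -3.73, with TM arrays at 6.65, 7.08 and 6.96. In both genes the 3 genotypes did not overlap.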

How the results depend on the processing

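The signs of differences were compared between alternatives for the members only. Krt19, which was called lower in TM against WT, stayed between -1.89 and -1.71 there. The calls for the 6 members tested in TM against WT were the same under all alternatives. Differences near 0 did change sign, with Krt8 between -0.01 and 0.11 in DM against WT, between -0.03 and 0.15 in TM against WT and between -0.09 and 0.09 in TM against DM, and Krt18 between -0.11 and 0.05 in TM against WT. In DM against WT 1052 genes were called higher and 1131 lower, but 1134 and 964 with cyclic loess, 1068 and 1037 with quantile normalization and 908 and 1427 with median centring. The counts of genes called (2183 in DM against WT, 1824 in TM against WT and 1653 in TM against DM) ran from 2087 to 2262, 1798 to 1901 and 1650 to 1723 when single arrays were left out. The methods' t-test with the 1.5-fold limit called 2176, 1823 and 1648 genes unadjusted and 2124, 1784 and 1587 after Benjamini-Hochberg. With no fold limit limma's counts were 7340, 6338 and 6350, and with both limits stricter, 0.01 for the adjusted p and 2-fold, 885, 781 and 675. Of the further mesothelial markers, 1 fell in DM with median centring, and 2 fell in TM against WT with median centring or quantile normalization. With no fold limit 15 rose and 1 fell in DM, 3 fell in TM against WT and 2 were higher in TM than in DM, and none was higher there, a count of 0, at the stricter threshold. Of the simple epithelial markers, with no fold limit 12 rose and 4 fell in DM, 4 rose and 11 fell in TM, and 3 were higher in TM than in DM. At the stricter threshold 0 rose in TM and 7 were lower in TM than in DM. With single arrays left out, mesothelial markers lower in TM against WT and those higher in TM than in DM were 1 to 2, and epithelial markers higher in TM against WT were 1 to 2. The cause of each was not tested, other than the change of threshold itself.

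Arrays with the same number showed no common deviation, with correlations from -0.239 to 0.168 over 9 pairs. Arrays with unlike numbers ran from -0.358 to 0.248. No pairing by number was seen, but with 3 arrays of each genotype this check cannot exclude one. With the replicate number as a block, 2184, 1824 and 1653 genes were called, and the counts of the further mesothelial and simple epithelial markers were the same. The counts of the other lists were recomputed at an unadjusted p and with the methods' t-test only. In 369 genes of WT, 185 of DM and 226 of TM all 3 arrays hold 1 identical value, which understates their spread. None of the 10 members is among them.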

Other observations

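Wt1 is also a gene of the kidney podocyte and the embryonic gonad, so markers of those cells were read as well. Of 10 measured, 2 rose and 2 fell in DM against WT, or 40.0% called against 10.9% of all genes. Lhx9, a homeobox gene of the gonadal ridge and limb, rose by 3.49 in DM and 2.20 in TM (adjusted p = 2.27e-12 and 2.19e-10 from limma), and Synpo, an actin-binding protein gene, by 1.28 and 1.12. Podxl differed by -1.81 in DM and -2.88 in TM, both called (adjusted p = 6.3e-10 and 1.24e-11 from limma), and Sox9, a cartilage and testis factor gene, fell by 1.65 in DM and differed by -0.01 in TM. Nphs1, Ptpro, Nr5a1, Amh, Amhr2 and Foxl2, which include the defining genes of podocytes and gonadal support cells, were not called in any comparison. Of these, Ptpro, Amh and Amhr2 had means below the array median in every genotype, so whether they were expressed is not known.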
